A study of Mus musculus with 12 samples.

Results

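The mitotic genes described here are 48 genes of mouse cells that work between entry into mitosis and the separation of the daughter cells: mitotic cyclins and kinases, the spindle assembly checkpoint, kinetochore proteins, condensin I, spindle and cytokinesis proteins, and the transcription factor Foxm1. They were taken by name from the gene names of the array files, with aliases mapped to the current symbol, and motor proteins of the kinesin family were left out by name except for Cenpe. All 48 were found, on 67 probes, and each gene was read from its brightest probe. All 48 passed the filter on dim probes and stand among 22320 genes tested.

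RNA was measured on 12 Agilent 2-colour arrays, each carrying a sample labelled with Cy5 beside a common reference of mouse embryonic stem cell (mESC) RNA labelled with Cy3, so every level below is a log2 ratio to mESC. The starting cells were a C57BL/6 mESC line with an actin-eGFP transgene, taken through embryoid bodies and a serum-free selection of neural progenitors. Step 4 cells are neural precursors after 5 days in N2 supplement and bFGF (10 ng/ml). Step 5 cells were differentiated for 7 days without bFGF, with B27 in place of N2 and ascorbic acid at 200 µM. At each step 3 arrays hold control cells, which were not enriched, and 3 hold cells enriched for PSA-NCAM on a magnetic column. PSA-NCAM is the cell adhesion molecule NCAM carrying polysialic acid, a surface mark of young neurons and their precursors. Dead cells had been removed before the enrichment. The design text calls the replicates biological. The labels do not settle whether the enriched step 5 cells were sorted before or after the 7 days. The control cells are a mixture, and a gene measured in a mixture can be lower because fewer cells are in mitosis or because each cell holds less RNA, which cannot be told apart here.

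Mitotic genes are transcribed in a wave as cells pass from DNA replication into mitosis and are silent in cells that have left the cycle. Cdk1 bound to cyclin B starts mitosis; the kinetochore then holds each chromosome to the spindle while the checkpoint keeps the anaphase promoting complex inactive; that complex finally marks securin and cyclin B for destruction, which frees separase and lets the cell divide. In the developing nervous system precursors pass through this cycle repeatedly, while neurons leave it as they are born.

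The arrays were of similar quality, with 25605 to 29078 of 39429 probes well above background in Cy5 and 23428 to 25688 in Cy3, and the probe used for each mitotic gene was above background in both colours on all 12 arrays with none saturated. Across the 48 genes the 3 arrays of a group correlated with Pearson r of 0.746 to 0.838 in step 4 control cells, 0.922 to 0.951 in step 4 enriched cells, 0.637 to 0.827 in step 5 control cells and 0.920 to 0.955 in step 5 enriched cells. One array stood apart for these genes: in step 5 control replicate 2, 44 of 48 lay below the mean of the other step 5 control arrays, by a median of -0.35, against -0.05 over all genes. The deviation was larger for brighter probes (across the 48 genes, Pearson r -0.416 and Spearman rho -0.478 with mean intensity). The same array had the lowest mean of the 14 neuron markers (0.05), of the 10 mesenchyme and fibroblast markers (3.24) and of the 9 astrocyte markers (0.36) among the step 5 control arrays, and was scanned with the other replicate 2 arrays on another day. Step 4 control replicate 2 also had the lowest means of these lists in its group (0.25, 2.27 and 0.15), but the highest mitotic mean (-0.22). Whether any of these go with the mitotic values was not tested. Values without step 5 control replicate 2 are given beside the results that it moved most.

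Mitotic genes were lower in PSA-NCAM-enriched cells at both steps, and further below the control cells at step 5. At step 4, 35 of the 48 were lower than in control cells and 1, Cdc25b, was higher, with a median log2 difference of -0.78 (1.72-fold lower) against 0.01 over all genes tested; 16.2% of all genes were called lower and 15.0% higher by the same rule (limma across all genes, Benjamini-Hochberg adjusted p below 0.05). At step 5, 47 of 48 were lower, with a median of -1.51 (2.85-fold) against -0.01 over all genes, and Cdc25b was the remaining gene; 20.2% of all genes were called lower and 20.3% higher. Differences below are enriched minus control, in log2, with the standard error from limma over 3 arrays per group. Slide by slide, 43 genes were lower in the enriched cells on all 3 slides at step 4 and 47 at step 5, with slide medians of -0.55, -0.77 and -0.95 and then of -1.67, -1.01 and -1.85. For such slide counts, here and below, the share of all genes was not taken. The arrays of the enriched and control cells did not overlap for 43 genes on the low side at step 4, against 24.8% of all genes, and for 1 on the high side, against 22.1%. At step 5 they did not overlap for 47 on the low side and 0 on the high side, against 25.6% of all genes for each. Without step 5 control replicate 2, the counts were 38 lower at step 4 and 47 at step 5, where the median became -1.67. Leaving out 1 array at a time ended the step 4 call in 1 or more of 12 fits for Ncapd2 (10 fits), Pttg1 (7), Aurka and Cdc25b (5 each), Ccna2 (4), Smc4 (3), Cdc20 and Nusap1 (2 each) and Cdca8, Cenpa, Foxm1 and Ube2c (1 each), and the step 5 call for Mki67 and Pttg1 (3 each) and Bub3 (2). Of the genes not called at step 4, Birc5, Ccnb1, Incenp, Plk1 and Prc1 were called lower with median centring in place of loess (adjusted p of 0.0327, 0.0464, 0.0186, 0.0405 and 0.0433), and Birc5 and Ccnb1 also with the mean of their probes (0.00969 and 0.00156). With only the step 4 arrays in the fit, Ccnb1, Incenp and Plk1 were called lower as well (adjusted p of 0.0264, 0.0402 and 0.0184). The same genes were those added without step 5 control replicate 2 (0.0163, 0.0144 and 0.00572). Such settings also ended calls. At step 4, median centring ended 2, the fit with only the step 4 arrays 1 and dropping the filter on dim probes 2. At step 5, median centring ended 1 and the fit with only the step 5 arrays 3.

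**Figure D1:**
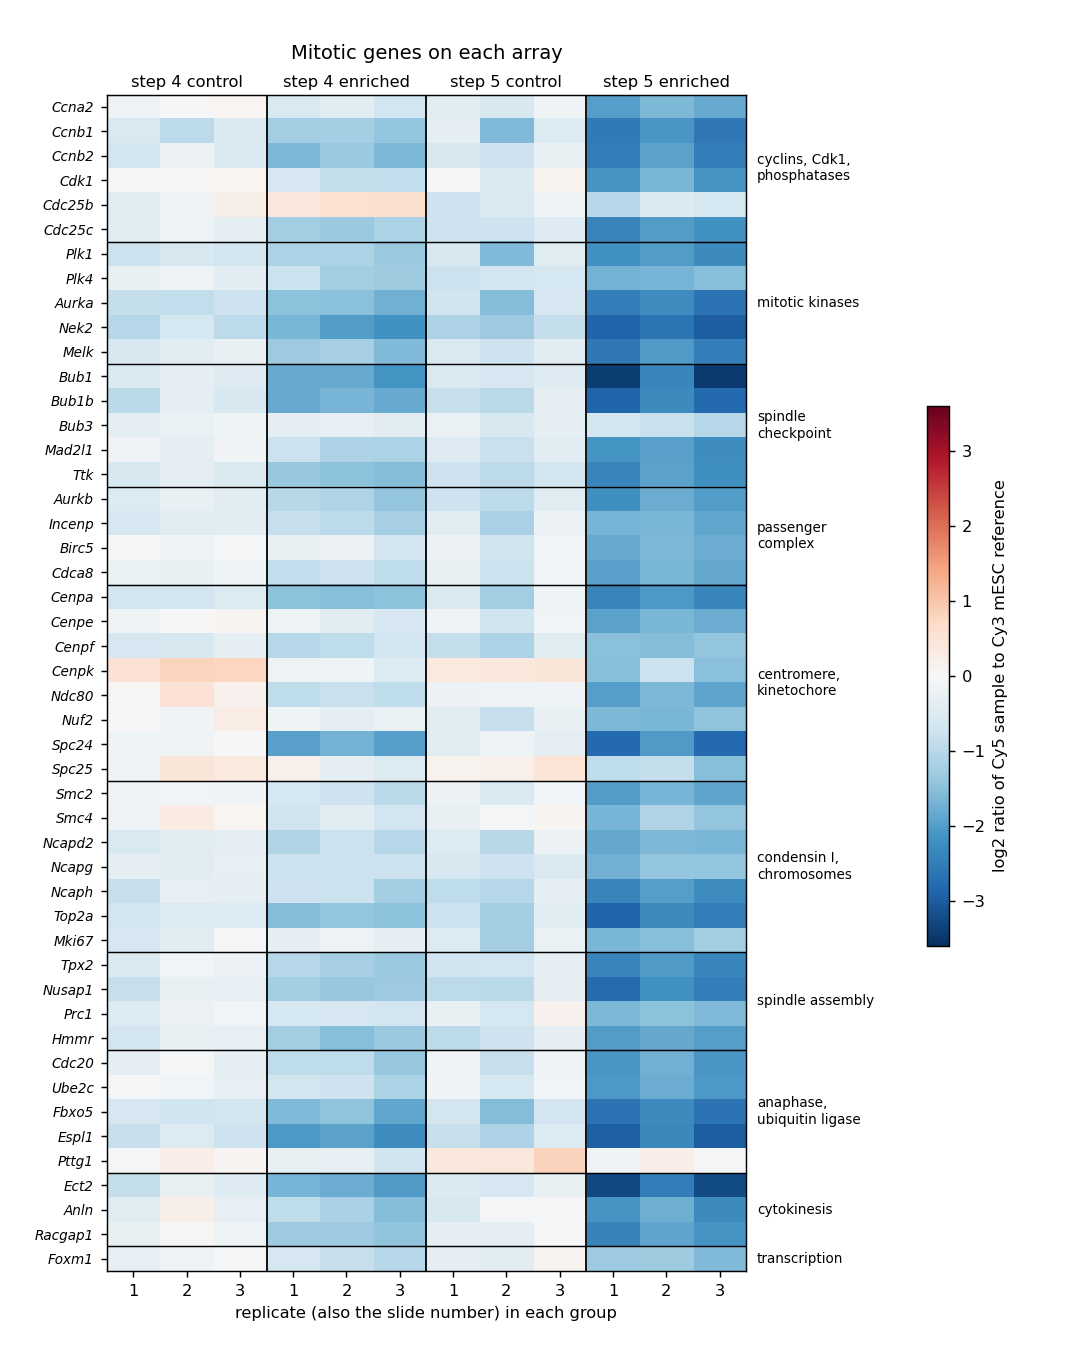
Log2 ratio to mESC of the 48 mitotic genes (rows, grouped by role) on each of the 12 arrays (columns, by group and replicate); blue is below mESC and red above it. The 3 step 5 enriched columns are the lowest for most genes, and the step 4 enriched columns mostly lie between them and the control columns. Cdc25b, Mki67 and Pttg1 break that order, and in the column of step 5 control replicate 2 Plk1, Ccnb1 and Aurka are as low as -1.58, -1.60 and -1.57.

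The promoters of these genes show what they share in sequence. RefSeq promoter windows, from 250 bases before to 50 after the annotated start on GRCm38.p6, were at hand for 40 of the 48 genes, and were searched on both strands for the cell cycle genes homology region (CHR, spelled TTTGAA or TTCGAA), bound by the MuvB complex, and for the CCAAT box (spelled CCAAT), bound by NF-Y. Matches of the CHR and CCAAT spellings can share an end base. The 40 genes had 45 windows, and a gene counts if any of its windows holds the match. A CHR was found in 28 of 40 genes (70.0%, against 21.7% of the 27025 genes in the table), a CCAAT in 30 (75.0%, against 41.1%) and both in the same window in 26 (65.0%, against 8.61%). The CHR began within 50 bases of the start in 26 of the 40 (65.0%, against 6.12%), and 10 genes (25.0%, against 1.36%) held a pair of CCAAT boxes of one orientation starting 30 to 35 bases apart. The 6 stretches printed here, each from 120 bases before to 30 after the start, are shown to compare the motif layouts of 4 core genes with those of the gene that fell most at step 5 and the one that rose at step 4, the last pair chosen after their values were seen; capitals mark CHR and CCAAT matches on either strand (TTCAAA and ATTGG are the reverse spellings).
Cdk1 (chr10:69352883-69353032, reverse strand): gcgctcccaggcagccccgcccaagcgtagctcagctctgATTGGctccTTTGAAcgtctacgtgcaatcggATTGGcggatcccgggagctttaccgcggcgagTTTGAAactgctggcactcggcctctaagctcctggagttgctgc
Ccnb1 (chr13:100786457-100786606, reverse strand): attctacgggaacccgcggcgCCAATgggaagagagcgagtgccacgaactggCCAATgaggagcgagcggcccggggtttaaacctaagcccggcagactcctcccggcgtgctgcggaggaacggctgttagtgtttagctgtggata
Cdc20 (chr4:118437314-118437463, reverse strand): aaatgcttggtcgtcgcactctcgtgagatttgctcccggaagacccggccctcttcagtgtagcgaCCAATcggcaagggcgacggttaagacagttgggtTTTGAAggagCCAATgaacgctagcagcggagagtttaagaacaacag
Ube2c (chr2:164769809-164769958, forward strand): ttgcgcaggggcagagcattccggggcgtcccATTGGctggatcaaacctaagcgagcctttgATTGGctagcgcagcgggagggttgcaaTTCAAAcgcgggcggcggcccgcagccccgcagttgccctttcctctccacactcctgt
Bub1 (chr2:127831830-127831979, reverse strand): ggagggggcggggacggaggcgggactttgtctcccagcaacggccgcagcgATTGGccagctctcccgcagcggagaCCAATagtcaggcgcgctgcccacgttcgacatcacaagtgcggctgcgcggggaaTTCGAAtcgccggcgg
Cdc25b (chr2:131186828-131186977, forward strand): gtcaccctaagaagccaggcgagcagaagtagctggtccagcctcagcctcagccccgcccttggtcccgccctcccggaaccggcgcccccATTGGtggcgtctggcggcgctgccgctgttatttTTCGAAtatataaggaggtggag
Cdk1 holds 2 reverse CCAAT boxes in this stretch, starting at -80 and -48, with a CHR at -71 and another at -15. Ccnb1 holds CCAAT boxes at -99 and -67 and no CHR in its window. Plk1, which was also examined but is not printed, has a single CCAAT box, at -14, and a CHR at 31, past the end of such a stretch. Cdc20, Ube2c and Bub1 each hold 2 CCAAT boxes here and a CHR between -29 and 15, but the boxes differ in layout: Cdc20 has forward boxes at -53 and -8, Ube2c reverse boxes at -88 and -57, and Bub1 a reverse box at -68 and a forward one at -42. Cdc25b, the gene that was higher in enriched cells at step 4, also holds both, with CCAAT at -28 and CHR at 8.

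**Figure D2:**
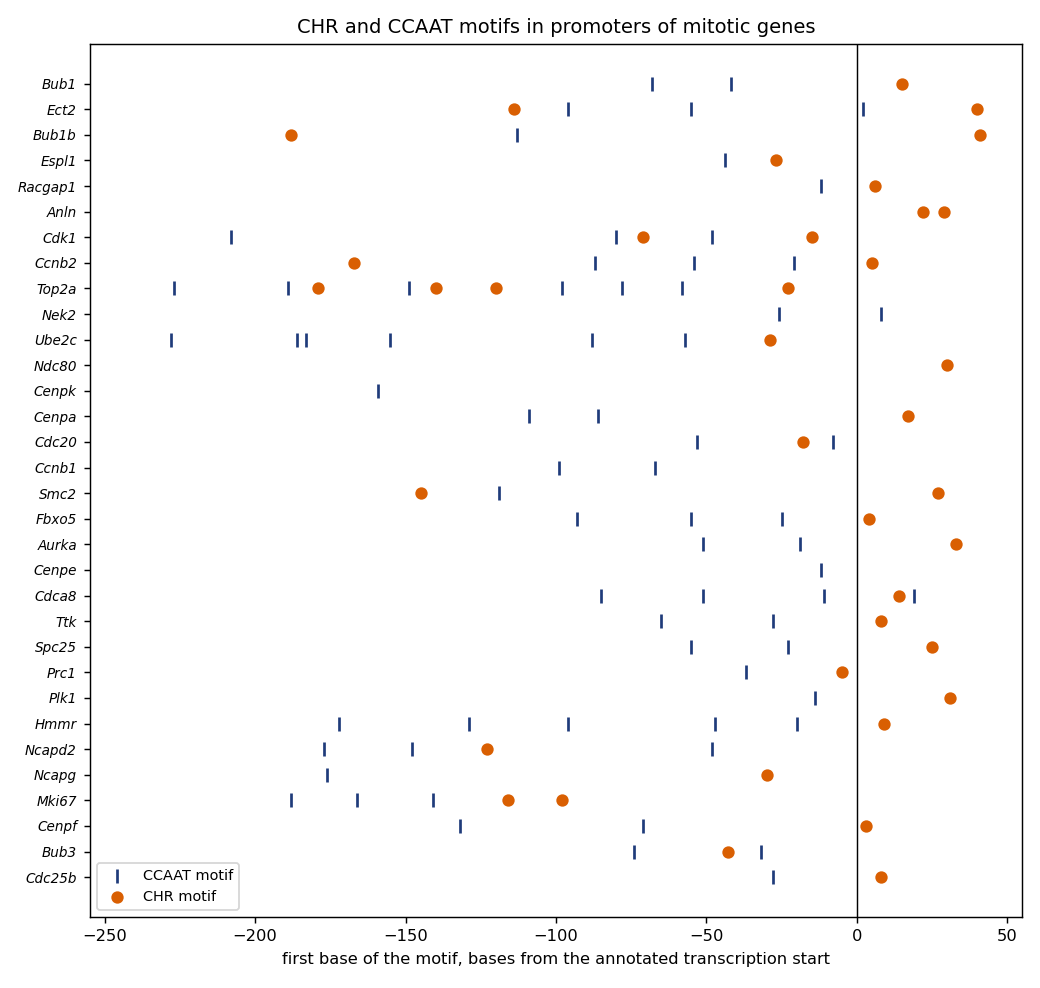
Positions of CHR and CCAAT matches (symbols) relative to the annotated start, in bases, in the first RefSeq window of the 32 mitotic genes whose window holds a match. CHR matches gather around the start, while CCAAT matches lie mostly upstream of it.

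Differences between promoter classes were not tested. The median difference at step 4 was -0.76 for the 26 genes with both motifs, -1.01 for the 6 with one of them (Anln, Ccnb1, Cenpe, Cenpk, Ndc80 and Nek2), -0.65 for the 8 with neither (Birc5, Mad2l1, Melk, Ncaph, Nuf2, Nusap1, Plk4 and Pttg1) and -0.72 for the 8 genes with no window. At step 5 these medians were -1.53, -1.67, -1.43 and -1.37. A match is a spelling in a window and not evidence of binding.

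Genes that start mitosis were mostly lower in the enriched cells. Of the 6 cyclins, Cdk1 and phosphatases, 4 were lower and 1 higher in the enriched cells at step 4, and 5 were lower at step 5. Cdk1, the kinase that drives mitosis (probe at chr10:68801072-68801131 on mm9), had log2 ratios of -0.04, 0.01 and 0.06 in step 4 control cells and -0.61, -0.85 and -0.89 in step 4 enriched cells. Cdk1 at step 5 read -0.0044, -0.52 and 0.13 in control cells and -2.13, -1.64 and -2.11 in enriched cells. The enriched arrays lay below every control array at both steps. Its difference was -0.79 ± 0.19 at step 4 (adjusted p = 0.0102) and -1.83 ± 0.19 at step 5 (adjusted p = 0.000115), a 3.55-fold fall. Of its other probes, one gave -0.87 and -1.78, and the dimmest, still above background on all 12 arrays, gave -0.06 and -0.28. Ccnb1, cyclin B1, its partner, read -0.54, -0.93 and -0.53 in step 4 control cells and -1.25, -1.21 and -1.39 in step 4 enriched cells. Ccnb1 at step 5 read -0.33, -1.60 and -0.50 in control cells and -2.55, -2.09 and -2.59 in enriched cells. The step 5 control array at -1.60 lies far below the other control arrays, yet above all 3 step 5 enriched arrays. Ccnb1 was not called at step 4 (-0.61 ± 0.29, adjusted p = 0.132), though it was with only the step 4 arrays in the fit (adjusted p = 0.0264). It was called lower at step 5 (-1.60 ± 0.29, adjusted p = 0.00192), where the difference without step 5 control replicate 2 was -1.99. Its probes disagree in size: the 2 dimmer probes gave -1.70 and -1.78 at step 4 against -0.61 for the brightest. Cyclin A2 (Ccna2, -0.50 then -1.43), cyclin B2 (Ccnb2, -1.06 then -1.79) and the phosphatase Cdc25c (-0.94 then -1.53) fell at both steps.

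Cdc25b went the other way at step 4. This phosphatase removes the inhibitory phosphates from Cdk1. Its probe, at chr2:131023911-131023970 on mm9, read -0.41, -0.12 and 0.21 in step 4 control cells and 0.41, 0.54 and 0.57 in step 4 enriched cells. Cdc25b at step 5 read -0.74, -0.51 and -0.19 in control cells and -1.03, -0.51 and -0.63 in enriched cells. All 3 step 4 enriched arrays exceeded the 3 step 4 controls, while the step 5 groups overlapped. The step 4 difference was 0.61 ± 0.20 (adjusted p = 0.0378, 1.53-fold higher; adjusted p = 0.00521 with the replicate number as a block). Leaving out either of step 4 control replicates 1 and 2 or any of the 3 step 4 enriched arrays ended that call, with differences over all 12 such fits from 0.46 to 0.77 and adjusted p up to 0.129. At step 5 it was -0.24 ± 0.20 (adjusted p = 0.356), and from step 4 to step 5 it fell by 1.23 in enriched cells (adjusted p = 0.00737).

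Among the 5 mitotic kinases, 4 fell at step 4 and all 5 at step 5. Plk1, polo-like kinase 1, which acts at centrosomes, kinetochores and the midbody, read -0.77, -0.58 and -0.65 in step 4 control cells and -1.15, -1.15 and -1.35 in step 4 enriched cells. Plk1 at step 5 read -0.57, -1.58 and -0.42 in control cells and -2.19, -2.01 and -2.29 in enriched cells. Every enriched array lay below every control array of its step, although one step 5 control array sat at -1.58, below the step 4 enriched cells. Plk1 missed the threshold at step 4 (-0.55 ± 0.25, adjusted p = 0.121), though it passed with only the step 4 arrays in the fit (adjusted p = 0.0184). At step 5 it passed (-1.31 ± 0.25, adjusted p = 0.00240), and the difference was -1.67 without step 5 control replicate 2. Plk4, which controls centriole duplication, read -0.27, -0.17 and -0.40 in step 4 control cells and -0.78, -1.24 and -1.28 in step 4 enriched cells. Plk4 at step 5 read -0.76, -0.67 and -0.64 in control cells and -1.69, -1.69 and -1.53 in enriched cells. The enriched and control arrays did not overlap at either step, and it fell by 0.82 at step 4 (adjusted p = 0.00221) and by 0.95 at step 5 (adjusted p = 0.000635). Aurora kinase A (Aurka, centrosome maturation) went from -0.72 to -1.50 between the steps, Nek2 (centrosome separation) from -1.07 to -1.73 and Melk from -0.97 to -1.79, all called lower at both.

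The spindle assembly checkpoint held the gene with the largest step 5 difference and one of the smallest. Of its 5 genes, 4 fell at step 4 and 5 at step 5. Bub1, a kinase that recruits checkpoint proteins to unattached kinetochores (probe at chr2:127626988-127627047 on mm9), read -0.53, -0.33 and -0.46 in step 4 control cells and -1.80, -1.81 and -2.15 in step 4 enriched cells. Bub1 at step 5 read -0.55, -0.60 and -0.47 in control cells and -3.40, -2.36 and -3.45 in enriched cells. The control arrays of both steps sat together between -0.60 and -0.33, and no enriched array was above -1.80. Bub1 fell by 1.48 at step 4 (2.80-fold, adjusted p = 0.00205) and by 2.53 at step 5 (5.78-fold, adjusted p = 0.000104). Bub3, its binding partner, which also acts outside the checkpoint, read -0.33, -0.23 and -0.16 in step 4 control cells and -0.32, -0.31 and -0.41 in step 4 enriched cells. Bub3 at step 5 read -0.25, -0.57 and -0.34 in control cells and -0.65, -0.81 and -1.02 in enriched cells. The step 4 groups overlapped and the step 5 groups did not. Bub3 differed by -0.10 ± 0.12 at step 4 (adjusted p = 0.564) and -0.44 ± 0.12 at step 5 (adjusted p = 0.0155), a call that ended without step 5 control replicate 1 or step 5 enriched replicate 3 (adjusted p up to 0.0632). Bub1b (BubR1), Mad2l1 (Mad2) and Ttk (Mps1), which inhibit or relay the inhibition of Cdc20, fell by 1.13, 0.80 and 0.98 at step 4 and by 1.93, 1.56 and 1.38 at step 5. The 2 dimmer probes of Mad2l1 gave -0.57 and -0.58 at step 4 and -1.04 and -0.85 at step 5.

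**Figure D3:**
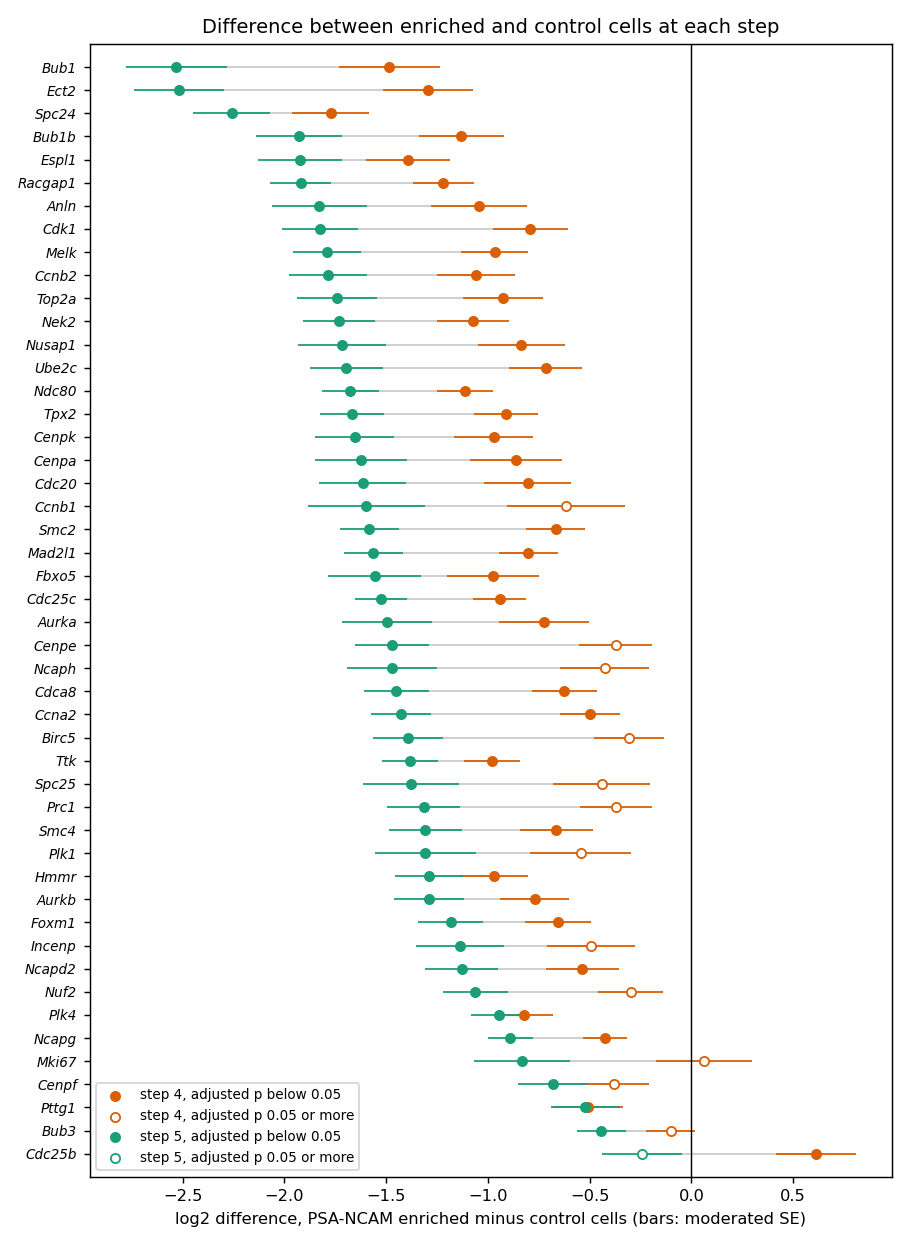
Enriched minus control log2 difference (horizontal axis) at step 4 (orange) and step 5 (green) for the 48 mitotic genes, ordered by step 5; bars are the standard error from limma, and filled points have an adjusted p below 0.05. The step 5 point lies left of the step 4 point in each of the 48 rows, and Mki67 and Cdc25b are the rows with a step 4 point right of zero.

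The chromosomal passenger complex, which corrects wrong attachments of chromosomes and guides cytokinesis, had 2 of 4 members lower at step 4 and all 4 at step 5. Its kinase Aurkb read -0.50, -0.26 and -0.40 in step 4 control cells and -0.99, -1.07 and -1.41 in step 4 enriched cells. Aurkb at step 5 read -0.74, -0.95 and -0.42 in control cells and -2.22, -1.77 and -2.00 in enriched cells. Enriched arrays lay below control arrays at both steps, and Aurkb fell by 0.77 (adjusted p = 0.00819) and then by 1.29 (adjusted p = 0.000379). Birc5 (survivin), the subunit that docks the complex on the centromere, read -0.03, -0.13 and -0.08 in step 4 control cells and -0.27, -0.21 and -0.68 in step 4 enriched cells. Birc5 at step 5 read -0.21, -0.73 and -0.10 in control cells and -1.81, -1.63 and -1.78 in enriched cells. The step 4 groups came as close as -0.13 and -0.21, while the step 5 enriched arrays were all at or below -1.63. Birc5 was not called at step 4 (-0.31 ± 0.17, adjusted p = 0.203) and fell by 1.39 at step 5 (adjusted p = 0.000271). Its 2 dimmer probes gave -0.63 and -0.74 at step 4 and -1.52 and -1.63 at step 5, and with the mean of its probes the step 4 difference was called (-0.56, adjusted p = 0.00969), as it was with median centring in place of loess (-0.57, adjusted p = 0.0327). Cdca8 (borealin) fell at both steps (-0.63 and -1.45), and the scaffold Incenp at step 5 (-1.14). At step 4 Incenp was not called (-0.49, adjusted p = 0.106), though it was with only the step 4 arrays in the fit (adjusted p = 0.0402).

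Of the 8 centromere and kinetochore genes, 4 were lower at step 4 and 8 at step 5. Spc24, a subunit of the Ndc80 complex that grips spindle microtubules, had the largest step 4 difference and read -0.16, -0.12 and -0.03 in step 4 control cells and -1.94, -1.70 and -1.98 in step 4 enriched cells. Spc24 at step 5 read -0.39, -0.17 and -0.32 in control cells and -2.81, -2.04 and -2.80 in enriched cells. Its lowest control array, at -0.39, stood far above its highest enriched array, at -1.70. It fell by 1.77 at step 4 (3.42-fold, adjusted p = 0.000232) and by 2.26 at step 5 (adjusted p = 7.29e-05). Nuf2, another subunit of the same complex, read -0.01, -0.12 and 0.28 in step 4 control cells and -0.16, -0.35 and -0.24 in step 4 enriched cells. Nuf2 at step 5 read -0.41, -0.84 and -0.28 in control cells and -1.62, -1.66 and -1.44 in enriched cells. Its step 4 groups came as close as -0.12 and -0.16, and it was not called (-0.30 ± 0.16, adjusted p = 0.179), and it fell by 1.06 at step 5 (adjusted p = 0.000695). The remaining subunits Ndc80 (-1.11 then -1.68, both called) and Spc25 (-0.44, adjusted p = 0.184, then -1.38, adjusted p = 0.00146) lay between them, so 2 of the 4 subunits fell at step 4.

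Cenpa, the histone H3 variant that marks centromeres, read -0.70, -0.69 and -0.50 in step 4 control cells and -1.48, -1.52 and -1.48 in step 4 enriched cells. Cenpa at step 5 read -0.53, -1.25 and -0.15 in control cells and -2.38, -2.08 and -2.35 in enriched cells. The step 4 enriched arrays lay between -1.52 and -1.48, below all step 4 controls, while the step 5 controls were spread from -1.25 to -0.15. Cenpa fell by 0.86 (adjusted p = 0.0165) and by 1.62 (adjusted p = 0.000477). Cenpe, a kinetochore motor that carries chromosomes to the spindle equator, read -0.17, -0.02 and 0.11 in step 4 control cells and -0.19, -0.41 and -0.59 in step 4 enriched cells. Cenpe at step 5 read -0.13, -0.73 and -0.08 in control cells and -1.93, -1.64 and -1.79 in enriched cells. The step 4 groups almost met, at -0.17 and -0.19, and the step 5 groups stood well apart. It was not called at step 4 (-0.37 ± 0.18, adjusted p = 0.142) and fell by 1.47 at step 5 (adjusted p = 0.000253). Cenpf, a large protein of the outer kinetochore, read -0.59, -0.56 and -0.33 in step 4 control cells and -1.02, -0.92 and -0.68 in step 4 enriched cells. Cenpf at step 5 read -0.85, -1.15 and -0.44 in control cells and -1.50, -1.56 and -1.43 in enriched cells. Groups did not overlap at either step, yet the step 4 difference of -0.38 ± 0.17 missed the threshold (adjusted p = 0.114; 0.0354 with the replicate number as a block), and at step 5 it fell by 0.68 (adjusted p = 0.00938). Cenpk, of the constitutive centromere network, fell by 0.97 and 1.65.

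In the group of condensin I and chromosome structure, 5 of 7 genes fell at step 4 and 7 at step 5. Top2a, the topoisomerase that untangles sister chromatids, read -0.66, -0.50 and -0.50 in step 4 control cells and -1.56, -1.40 and -1.47 in step 4 enriched cells. Top2a at step 5 read -0.78, -1.21 and -0.42 in control cells and -2.87, -2.29 and -2.49 in enriched cells. Enriched arrays lay below every control array of their step. It fell by 0.92 (adjusted p = 0.00668) and by 1.74 (adjusted p = 0.000177). Of the 5 condensin I subunits, which compact mitotic chromosomes, Smc2, Smc4, Ncapd2 and Ncapg fell at step 4 by 0.42 to 0.67, Ncaph was not called (-0.43, adjusted p = 0.167), and all 5 fell at step 5 by 0.89 to 1.58.

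Mki67, the chromosome surface protein known as the proliferation marker Ki-67, did not follow the other genes at step 4. Its probe, at chr7:142881591-142881650 on mm9, read -0.61, -0.42 and -0.06 in step 4 control cells and -0.36, -0.18 and -0.36 in step 4 enriched cells. Mki67 at step 5 read -0.49, -1.21 and -0.24 in control cells and -1.66, -1.53 and -1.24 in enriched cells. The step 4 enriched arrays fell inside the range of the step 4 controls, and the step 5 enriched arrays lay below all other arrays. The step 4 difference was 0.06 ± 0.24 (adjusted p = 0.868), and a second probe gave 0.03. At step 5 it fell by 0.83 (adjusted p = 0.0175), a call that ended without step 5 control replicate 1, step 5 control replicate 3 or step 5 enriched replicate 1 (adjusted p up to 0.0638); without step 5 control replicate 2 it was -1.11.

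All 4 spindle assembly genes fell at step 5 and 3 of them at step 4. Prc1, which bundles the microtubules of the central spindle, read -0.51, -0.20 and -0.10 in step 4 control cells and -0.64, -0.59 and -0.69 in step 4 enriched cells. Prc1 at step 5 read -0.27, -0.62 and 0.14 in control cells and -1.63, -1.47 and -1.60 in enriched cells. It was not called at step 4 (-0.37 ± 0.18, adjusted p = 0.136), though its arrays did not overlap, and it fell by 1.32 at step 5 (adjusted p = 0.000403). Tpx2, which activates aurora kinase A on the spindle, went from -0.91 to -1.67, Nusap1 from -0.84 to -1.72 and Hmmr from -0.97 to -1.29. A second, dim probe of Tpx2 gave -0.14 and -0.61.

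Every one of the 5 anaphase genes fell at both steps, by unequal amounts. Cdc20, which activates the anaphase promoting complex, read -0.34, -0.07 and -0.36 in step 4 control cells and -0.91, -0.90 and -1.38 in step 4 enriched cells. Cdc20 at step 5 read -0.13, -0.83 and -0.12 in control cells and -2.09, -1.74 and -2.10 in enriched cells. Enriched arrays were lower than controls at both steps, by -0.81 (adjusted p = 0.0172) and -1.62 (adjusted p = 0.000360) on average. Espl1, the separase that cuts cohesin, read -0.84, -0.49 and -0.75 in step 4 control cells and -2.07, -1.93 and -2.26 in step 4 enriched cells. Espl1 at step 5 read -0.84, -1.11 and -0.49 in control cells and -2.93, -2.32 and -2.97 in enriched cells. It fell by 1.39 at step 4 (2.63-fold, adjusted p = 0.00117) and by 1.92 at step 5 (adjusted p = 0.000144), with no overlap. Its inhibitor Pttg1, securin, read -0.08, 0.24 and 0.09 in step 4 control cells and -0.26, -0.30 and -0.71 in step 4 enriched cells. Pttg1 at step 5 read 0.38, 0.41 and 0.82 in control cells and -0.12, 0.23 and -0.07 in enriched cells. Enriched arrays were below the controls of their own step, by -0.51 (adjusted p = 0.0440) and -0.52 (adjusted p = 0.0320), and on this probe both step 5 group means lay above those of step 4. A second, dimmer probe of Pttg1 read -0.999, -1.14 and -1.19 in step 4 enriched cells and -1.18, -0.98 and -1.25 in step 5 enriched cells, a difference between steps of -0.03 against 0.44 on the brighter one. The second probe gave enriched minus control differences of -0.70 and -1.03, a change between steps of -0.32, and step 5 control values of -0.28, -0.0010 and -0.05. Both calls of Pttg1 were fragile: the first ended in 7 and the second in 3 of the 12 fits that leave out 1 array. The ubiquitin conjugating enzyme Ube2c (-0.72, then -1.70) and Fbxo5, the inhibitor known as Emi1 (-0.97, then -1.56), completed the group.

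Cytokinesis genes had the largest median differences among the roles with more than 1 gene, -1.22 at step 4 and -1.92 at step 5, with all 3 called at both. Ect2, the exchange factor that switches on RhoA at the cell equator, read -0.85, -0.28 and -0.48 in step 4 control cells and -1.67, -1.78 and -2.04 in step 4 enriched cells. Ect2 at step 5 read -0.51, -0.62 and -0.26 in control cells and -3.24, -2.49 and -3.22 in enriched cells. No step 5 control array was below -0.62 and no step 5 enriched array above -2.49. It fell by 1.30 (adjusted p = 0.00230) and by 2.52 (adjusted p = 8.71e-05), 2.46-fold and 5.73-fold. A dimmer probe of Ect2 gave -0.90 and -1.58. Racgap1, which binds Ect2 at the central spindle, fell by 1.22 and 1.92, and the scaffold anillin (Anln) by 1.04 and 1.83. Foxm1, the transcription factor that drives many genes of this phase, read -0.29, -0.14 and -0.08 in step 4 control cells and -0.61, -0.83 and -1.04 in step 4 enriched cells. Foxm1 at step 5 read -0.31, -0.41 and 0.11 in control cells and -1.30, -1.28 and -1.58 in enriched cells. Enriched arrays lay below control arrays at both steps. It fell by 0.65 (adjusted p = 0.0131) and by 1.18 (adjusted p = 0.000442), with -0.45 and -0.78 on its dimmer probe.

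**Figure D4:**
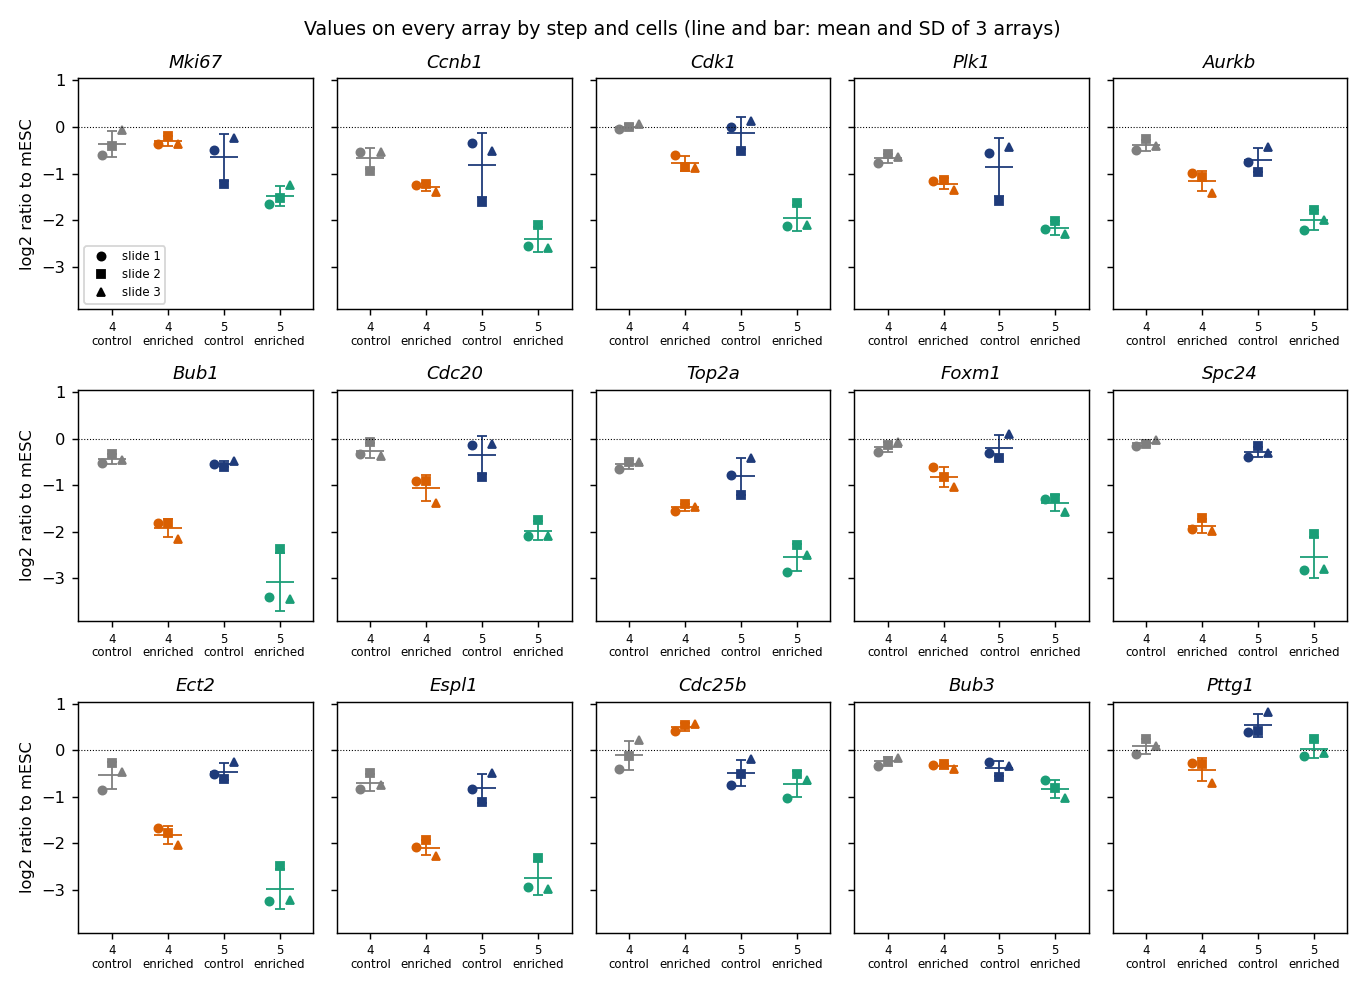
Log2 ratio to mESC on each array (points, shaped by slide) with mean and SD of the 3 arrays of a group, for 15 mitotic genes; the dotted line at 0 is the mESC level. Bub1, Spc24 and Ect2 drop in both enriched groups, Mki67 separates at step 5, Cdc25b is highest in step 4 enriched cells, and Pttg1 lies near or above 0 in both step 5 groups.

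Between step 4 and step 5 no mitotic gene passed the threshold in control cells. None of the 48 was called by limma (0 of all 22320 genes, 0.00% in either direction), the median was -0.18, and 9 had an unadjusted p below 0.05 against 8.59% of all genes. The 3 largest differences, step 5 minus step 4, were -0.56 for Nuf2 (95% interval -0.91 to -0.21), 0.45 for Pttg1 (0.08 to 0.83) and -0.41 for Plk4 (-0.72 to -0.10). The smallest were -0.01 for Cenpa (-0.51 to 0.49), 0.02 for Prc1 (-0.37 to 0.41) and -0.03 for Foxm1 (-0.39 to 0.33). Without step 5 control replicate 2 the median was -0.06, with 29 genes below zero and 19 above. By slide the medians were -0.07, -0.57 and 0.02, the middle one being the slide of that array.

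The enriched cells fell further over the same interval. There, 38 of 48 were lower at step 5 and none was higher, with a median of -0.92 against -0.0031 over all genes; 2.46% of all genes were called lower and 3.96% higher. On all 3 slides 47 genes were lower (slide medians -1.12, -0.73 and -0.91), and on no slide was Pttg1, which read 0.44 (adjusted p = 0.163). The largest falls were those of Cenpe, by 1.39 (2.61-fold, adjusted p = 0.00321), Birc5, by 1.35 (adjusted p = 0.00312), and Nuf2, by 1.32 (adjusted p = 0.00235). None of the 3 had been called between enriched and control cells at step 4 on the probes used, although Birc5 was with the mean of its probes. Both comparisons use the step 4 enriched arrays, so a higher value on them makes the step 4 difference smaller and the later fall larger. Besides Pttg1, the smallest differences between steps were those of Bub3 (-0.48, adjusted p = 0.0433) and Plk4 (-0.53, adjusted p = 0.0485). By role, all 6 cyclins, Cdk1 and phosphatases, all 5 kinases, all 5 checkpoint genes and all 7 condensin and chromosome genes fell, as did 4 of 8 kinetochore genes, 3 of 4 passenger genes, 3 of 4 spindle genes, 3 of 5 anaphase genes and 2 of 3 cytokinesis genes; differences between roles were not tested. Foxm1 was not called (-0.56 ± 0.16, adjusted p = 0.0696). The count rests on few arrays: it was 25 without step 4 enriched replicate 1, 17 without replicate 2, 24 without step 5 enriched replicate 1 and 20 without replicate 3. By gene, the call ended in all 12 fits that leave out 1 array for Plk4, in 10 for Ccnb1, Ncapd2 and Plk1, in 9 for Aurka, Bub3 and Fbxo5, in 7 for Ccnb2, 6 for Bub1b and 5 for Smc4, in 4 for Aurkb, Bub1 and Cdc20, and in 1 to 3 for Mki67, Nek2, Cenpk, Ect2, Prc1, Ttk, Racgap1 and Top2a. With the replicate number as a block it was 41, with Anln, Spc24, Cenpf and Hmmr added (adjusted p of 0.0321, 0.0281, 0.0169 and 0.0491) and Plk1 lost (0.0494 without the block and 0.0524 with it). The block also raised the calls over all 22320 genes, to 2447 in either direction, from 550 lower and 883 higher without it.

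The mean difference was lower at step 5 than at step 4 in all 48 genes, but for no single gene did this change pass the threshold. The change of the enriched minus control difference from step 4 to step 5 had a median of -0.76 and was below zero for each gene; 36 had an unadjusted p below 0.05 (3.50% of all genes were below zero with such a p), and none of the 48 or of all genes passed after adjustment (0.00%; lowest adjusted p among the 48 = 0.297). By slide its medians were -1.10, -0.21 and -0.89, the smallest on the slide of step 5 control replicate 2, and 37 of the 48 genes were below zero on all 3 slides. Without that array the median was -0.90, and 43 genes had an unadjusted p below 0.05, the share of all genes not being taken for that fit. The largest were Ect2 (-1.22, 95% interval -1.92 to -0.53), Cenpe (-1.10, -1.66 to -0.53) and Birc5 (-1.08, -1.63 to -0.54). The smallest were Pttg1 (-0.01, -0.55 to 0.52), Plk4 (-0.12, -0.56 to 0.31) and Cenpf (-0.30, -0.83 to 0.23). The genes kept much of their order: across the 48, the step 4 and step 5 differences, which share no array, had a Pearson r of 0.837 and a Spearman rho of 0.803 (0.881 and 0.857 over all 22320 genes), the points sharing their slides, probes and reference.

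Set against the mESC reference itself, control cells were close to mESC and enriched cells well below it. In this comparison dye and sample cannot be told apart, since no dyes were swapped, and the spread of the reference is left out. Step 4 control cells had a median of -0.29, with 24 genes lower and 1, Cenpk (0.70), higher (17.4% and 21.4% of all genes); step 5 control cells had -0.55, with 34 lower and 2 higher, Pttg1 (0.54) and Cenpk (0.38), against 19.0% and 25.7%. The step 4 count of 24 fell to 6 without step 4 control replicate 1, to 16 without replicate 2 and to 11 without replicate 3, and the step 5 count of 34 to 24 without step 5 control replicate 2. Step 4 enriched cells had a median of -1.03, with 43 lower and only Cdc25b (0.51) higher (31.5% and 35.4%), and step 5 enriched cells -1.98, with 47 lower and 0 higher (33.0% and 38.4%), Pttg1 at 0.02 being the gene left. The lowest level was that of Bub1 in step 5 enriched cells, 8.41-fold below mESC. With median centring in place of loess the control medians were 0.21 at step 4, where 1 gene was lower and 19 higher, and -0.08 at step 5, so the direction of control cells against mESC turns with the scaling; the enriched medians stayed below zero at -0.57 and -1.42.

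Other genes of cell division gave a frame for these values. Among all genes, 16.2% were called lower and 15.0% higher at step 4, and 20.2% and 20.3% at step 5. Of 11 further mitotic kinesins measured, 10 fell at step 4 and 11 at step 5, with medians of -0.71 and -1.60, led by the microtubule depolymerase Kif2c (-1.38) at step 4 and Kif20b (-1.98) at step 5. Of 48 other kinetochore and spindle genes, 32 fell and 1 rose, then 42 fell and 2 rose (medians -0.73 and -1.42), with Ska1 (-1.60) and Cdca5 (-1.52) first at step 4 and Kntc1 (-2.25) and Cdca5 (-2.22) at step 5. The 3 condensin II genes fell at both steps, Ncapd3 by 0.93 and 1.11. By contrast, 21 genes of the anaphase promoting complex and cohesin had medians of 0.15 and -0.0049, with 3 lower and 2 higher at step 4 and 5 lower and 2 higher at step 5. Their lower counts were near the shares of all genes. Wapl, the cohesin release factor, lay lowest (-1.59 and -1.70).

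Genes of DNA replication, the phase before mitosis, were lower too. The enriched minus control counts below are to be read against the same shares of all genes. Of 50, 39 fell at step 4 and 46 at step 5, with medians of -0.85 and -1.40. Orc1 (-2.04) and Mcm10 (-1.62) came first at step 4, and the replication licensing inhibitor Gmnn (-2.32) and Cdc6 (-2.11) at step 5. From step 4 to step 5 in enriched cells 17 fell (median -0.66), against 38 of the 48 mitotic genes (median -0.92) and 2.46% of all genes. Among 21 MuvB, B-Myb and pocket protein regulators, 6 fell and 2 rose at step 4, Rb1 (0.78) and E2f4 (-0.78) having the largest differences, and 13 fell and 2 rose at step 5, with E2f1 at -1.84. Of 15 G1 cyclins, their kinases and CDK inhibitors, 4 rose and 1 fell at step 4, led by the inhibitor Cdkn2c (1.02) and by Cdk4 (0.85), and at step 5 Cdk2 fell (-1.06) and 2 rose, Cdkn2d the most (0.73).

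Markers of other cell types are given beside these values, to be read against the 15.0% and 20.3% of all genes called higher at step 4 and step 5. All 15 pluripotent cell markers were lower in enriched cells at both steps, with medians of -3.54 and -3.35; their mean log2 ratio to mESC per array ranged from -0.95 to -0.74 in step 4 control cells, -4.55 to -3.37 in step 4 enriched cells, -0.90 to -0.76 in step 5 control cells and -4.29 to -2.81 in step 5 enriched cells. The part of such cells in the mitotic values was not tested. Of 14 neuron markers, 2 were higher in enriched cells at step 4 and 11 at step 5 (Dcx, 3.40), with means per array of 0.25 to 2.17, 1.51 to 3.32, 0.05 to 1.30 and 2.80 to 2.88 in the same order of groups. Of 11 radial glia and neural stem markers 4 and 5 were higher, of 9 astrocyte markers 2 and 6, of 9 oligodendrocyte lineage markers 0 and 6, and of 10 mesenchyme and fibroblast markers 2 and 0. Between step 4 and step 5 the pluripotent markers of enriched cells were not called (0 of 15), while 6 of 9 astrocyte markers and 4 of 9 oligodendrocyte markers rose, against 3.96% of all genes. In the same cells 38 mitotic genes fell, against 2.46% of all genes. Means per array of enriched cells at step 4 and step 5 overlapped for the neuron markers and for the radial glia and neural stem markers (2.62 to 3.08, then 2.22 to 2.90). Those of the mesenchyme and fibroblast markers were 3.49 to 3.76 and 4.67 to 5.11. The part of any of these cells in the mitotic values was not tested.

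**Figure D5:**
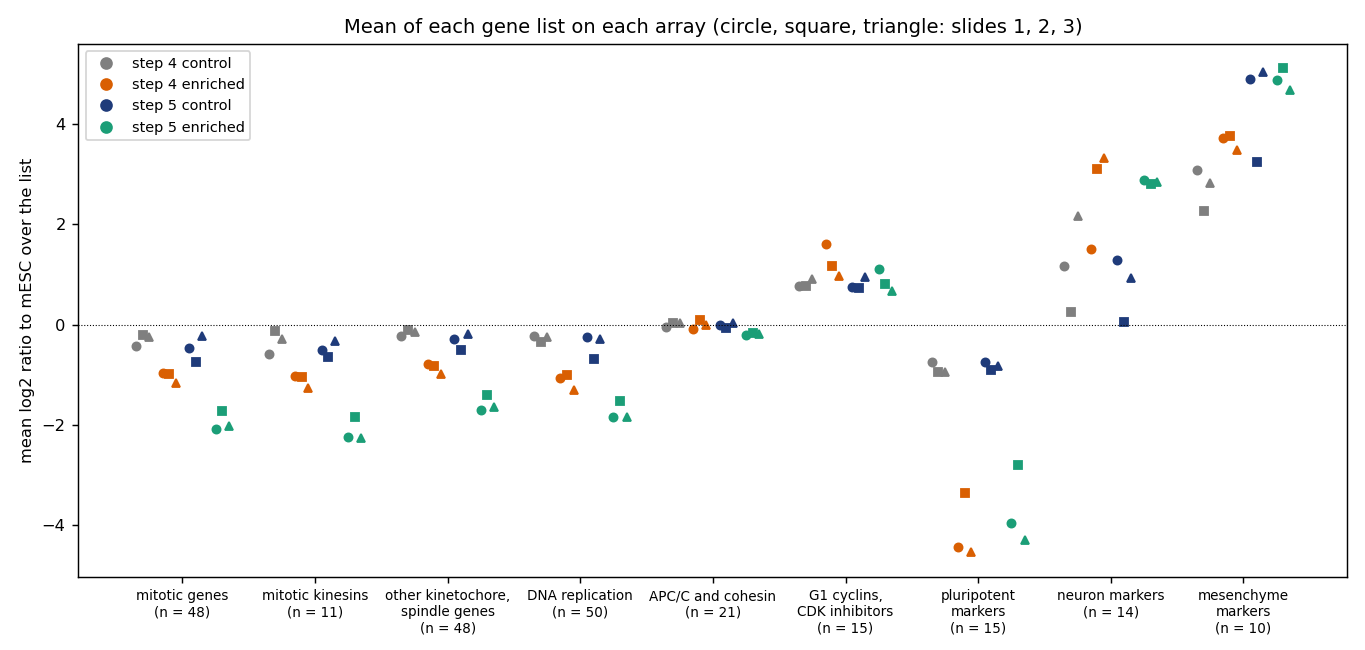
Mean log2 ratio to mESC of the 48 mitotic genes and of related gene lists on each of the 12 arrays (points, coloured by group). The mitotic, kinesin, kinetochore and replication lists step down from control to enriched cells and from step 4 to step 5 within enriched cells, while the pluripotent markers are low in both enriched groups alike.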

How the data were processed

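Total RNA (100 ng per labelling) of 12 samples was hybridised on Agilent mouse 2-colour arrays, Cy5 sample against Cy3 mESC, with no dye swap. Per the file headers, the authors extracted intensity values with Agilent Feature Extraction 10.7.3.1 (10.5.1.1 for the slide of the replicate 2 arrays). The deposited value table held log2 ratios equal to the scanner log10 ratio turned to log2 within 0.001 for 99.4% to 99.5% of probes per array, with 175 values missing; it served as an alternative. The deposited files give probe positions on mm9.

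From the mean signals, background was corrected with normexp (offset 50), and arrays were normalised by loess in limma 3.58.1 (R 4.3.3), with 1377 control spots and 128 to 298 outlier spots per array at weight 0 and nothing between arrays. Spots of a probe were averaged and the brightest probe kept per gene. A gene entered the tests where all 3 arrays of some group had Cy5 well above background (22320 genes; against mESC also Cy3 on all 12 arrays, 22450). One model with 4 group means covered all 12 arrays, with Benjamini-Hochberg adjustment over all genes and a threshold of 0.05. The number of arrays limits the precision. The fit was also tested on simulated data, drawn from the means and spread of the real arrays, with arrays independent of each other.

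Replicate number is also the slide. Arrays of the same number deviated together over all genes in each pair of groups compared (r of 0.130 to 0.644 and 0.188 to 0.361 between enriched and control cells at steps 4 and 5, and 0.463 to 0.747 and 0.341 to 0.413 between steps in control and enriched cells). Since these arrays share a slide, a pairing of the samples cannot be told apart from an effect of the slide, and the labels name no pairing. A fit with the number as a block is an alternative. Position on the slide follows the group and cannot be told apart from it.

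The 48 members, the related lists and the tests were chosen with earlier results of these data known. Values on every array are given for 9 anchor genes and, per comparison, for the 3 largest and 3 smallest differences and any gene against the trend; for each related list, the 2 passing genes with the largest differences were eligible to be named. Values of dimmer probes are given beside Birc5, Ccnb1, Cdk1, Ect2, Foxm1, Mad2l1, Mki67, Pttg1 and Tpx2. Promoters came from RefSeq (GRCm38.p6); figures were drawn with matplotlib 3.10.9. Alternatives were other background and normalisation settings, filters, probes, blocks, and leaving out each array.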

Additional observations from a re-analysis of the deposited data

How the results depend on the processing

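Over 24 alternatives each, the counts lower in enriched cells ranged from 26 to 38 at step 4 (35 as reported) and from 44 to 47 at step 5 (47), with medians of -0.88 to -0.65 and -1.72 to -1.37. No mitotic gene was called in those alternatives for control cells between steps or for the change of the difference. The replicate block gave 36 lower and 1 higher at step 4, 47 at step 5, and 41 between steps in enriched cells. It changed no other call than those of Cenpf, Plk1, Spc24, Hmmr and Anln given above. Over all genes it called 8769, 10470 and 2447 in either direction. Without the block these were 3610 lower and 3340 higher, 4499 and 4528, and 550 and 883. Leaving out 1 array, the gene higher at step 4 ranged over 0 to 1 and the count lower between steps in enriched cells over 17 to 40; the median of the latter was -1.12 with the deposited table. Against mESC, leaving out 1 array gave 6 to 26 lower and 1 to 2 higher in step 4 control cells and 1 to 2 higher in step 5 control cells. The cause of these shifts was not tested.

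Apart from a median against mESC, the directions seen to turn belong to differences that were not called (0 of the turned genes followed had been). All 48 genes were followed for enriched minus control and between steps in enriched cells. Only 14 were followed for control cells between steps, 15 for the change of the difference and 9 to 11 against mESC, so turns of other genes there went uncounted. Without step 5 control replicate 2, 15 of the 48 turned in control cells between steps. With median centring in place of loess, Mki67 at step 4 was -0.076, Prc1 in control cells between steps -0.10, and Pttg1 in the change of the difference 0.022. Against mESC the same setting gave, in step 4 control cells, a median of 0.21 with 1 lower and 19 higher, Mki67 0.24, Bub1 0.042, Cdc20 0.41 and Foxm1 0.29. In step 4 enriched cells it gave a median of -0.57, 2 higher and Mki67 0.16, in step 5 control cells a median of -0.077, 8 lower, Cdk1 0.28, Cdc20 0.16 and Foxm1 0.23, and in step 5 enriched cells a median of -1.42 with 1 higher. With the deposited table, Mki67 at step 4 was -0.033, Prc1 in control cells -0.015, Cdk1 in step 4 control cells -0.032, and the medians of step 4 and step 5 enriched cells against mESC -1.27 and -2.33. Cdk1 in step 4 control cells was -0.024 with arrays centred and -0.062 as the mean of its probes; both settings and the deposited table gave 1 gene higher than mESC in step 5 control cells.

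Leaving out 1 array, the difference between steps in control cells ranged from -0.49 to 5.24e-05 for Mki67, -0.38 to 0.25 for Ccnb1, -0.27 to 0.052 for Cdk1, -0.40 to 0.17 for Plk1, -0.22 to 0.13 for Cdc20, -0.19 to 0.071 for Foxm1 and -0.26 to 0.29 for Cenpa, with the upper end in each case without step 5 control replicate 2, and from -0.18 to 0.21 for Prc1. Mki67 at step 4 ranged from -0.060 to 0.21, the change of the difference from -0.15 to 0.13 for Pttg1 and -0.22 to 0.038 for Plk4, and Cdk1 against mESC from -0.016 to 0.036 in step 4 control cells and -0.26 to 0.062 in step 5 control cells.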
